A study of Homo sapiens with 6 samples.

Results

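MDA-MB-231 cells, a human triple-negative breast cancer line, had more RNA of many genes of the meiosis, piRNA and germ cell program after treatment with guadecitabine. Of 48 genes chosen for their known roles in this program, with earlier results of these data known, 46 were in the deposited table of 17100 transcripts. HORMAD2 and SPO11 were not analysed here. After guadecitabine, 20 of the 30 members with enough counts to test were higher than with vehicle, and 0 were lower. Over all genes tested, 19.3% were higher and 18.4% lower. Of the 30, 12 were at 0 in vehicle replicates 1 and 2 and could reach the test mainly through their guadecitabine counts. DAZL, MAEL, DMRTB1, TEX11 and TDRD9 were among the 20 members that rose. Vehicle-treated cells gave 3 libraries and another 3 came from cells given 1 µM guadecitabine (SGI-110) for 96 h and kept without drug for 24 h before RNA was taken, all from the same cell line and, by the methods of the study, from 3 independent experiments. The vehicle itself is not named in the labels, and 1 cell line in culture was studied, so that the values hold for this line, dose and time.

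Germ cells carry out meiosis, the division in which homologous chromosomes pair along the synaptonemal complex, are held by meiosis-specific cohesin and exchange DNA through programmed breaks. They also make piRNAs, small RNAs bound by PIWI proteins that silence transposons with the help of Tudor-domain proteins. Many of these genes are silent outside the germline, and several are known to be kept silent by DNA methylation of their promoters. Guadecitabine is a dinucleotide prodrug of decitabine, which traps DNA methyltransferases and lowers DNA methylation in dividing cells. The comparison asks how the RNA of each member differed between cells with and without this treatment. RNA was pooled over many cells, so that more cells with a transcript and more transcript per cell cannot be told apart. No methylation was measured in these libraries.

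CpG sites, the places where human DNA is methylated, are shown in capitals in the 250 bases upstream of the annotated start of 4 members, read 5′ to 3′ on the strand of the gene from the GRCh37 (hg19) genome. DAZL (chr3:16647007-16647256, minus strand) and MAEL (chr1:166944569-166944818, plus strand) were the members with the highest levels after guadecitabine. SYCP2 (chr20:58507210-58507459, minus strand) rose with few CpG sites, and MOV10L1 (chr22:50528185-50528434, plus strand) stayed at a few counts with many.
DAZL: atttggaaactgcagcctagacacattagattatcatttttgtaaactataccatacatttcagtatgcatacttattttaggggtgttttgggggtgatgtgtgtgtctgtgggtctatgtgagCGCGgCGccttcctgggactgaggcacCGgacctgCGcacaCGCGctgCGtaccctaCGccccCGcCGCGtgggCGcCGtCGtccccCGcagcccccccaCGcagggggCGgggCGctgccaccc
MAEL: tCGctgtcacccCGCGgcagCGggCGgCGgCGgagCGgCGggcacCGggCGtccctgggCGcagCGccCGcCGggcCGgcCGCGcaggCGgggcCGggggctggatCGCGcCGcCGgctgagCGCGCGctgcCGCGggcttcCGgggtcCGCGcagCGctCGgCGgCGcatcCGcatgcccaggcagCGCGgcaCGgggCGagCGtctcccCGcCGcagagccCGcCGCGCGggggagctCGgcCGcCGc
SYCP2: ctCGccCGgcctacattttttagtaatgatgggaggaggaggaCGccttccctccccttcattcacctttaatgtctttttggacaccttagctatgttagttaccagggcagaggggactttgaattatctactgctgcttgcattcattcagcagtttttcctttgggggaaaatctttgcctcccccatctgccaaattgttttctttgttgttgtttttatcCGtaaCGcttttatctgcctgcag
MOV10L1: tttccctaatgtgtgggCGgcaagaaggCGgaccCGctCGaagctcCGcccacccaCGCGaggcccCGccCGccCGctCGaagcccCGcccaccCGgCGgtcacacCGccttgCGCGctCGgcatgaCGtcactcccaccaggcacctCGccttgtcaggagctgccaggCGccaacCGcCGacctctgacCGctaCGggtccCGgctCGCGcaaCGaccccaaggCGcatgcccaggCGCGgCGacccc

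In the 4 stretches, DAZL has 19 CpG sites, MAEL 51, SYCP2 5 and MOV10L1 33. All 4 windows lie at the start of the transcript counted for that gene, and other annotated starts were not examined. The windows are promoters by annotation only, and no binding or methylation at them was measured.

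Vehicle replicate 3 stood apart from the other libraries before any member was considered. Only 20 of its 17100 transcripts were at 0, against 2498 and 2517 in vehicle replicates 1 and 2 and 1593 to 2090 with guadecitabine. Over the 2038 transcripts at 0 in both other vehicle libraries, its median was 7.72 counts per kb of counted exon, with a 5th to 95th percentile range of 3.09 to 22.5. All 46 members had counts in this library, whereas 25 and 23 members were at 0 in vehicle replicates 1 and 2. The 22 members at 0 in both of those had 1.53 to 29.4 counts per kb in vehicle replicate 3, with a median of 5.76, and 17 of the 22 lay inside that percentile range. Calls and fold changes of members are therefore also given without it, and where its counts came from was not tested. Library totals were 17602570 to 22277442 counts for vehicle and 8792127 to 21410849 for guadecitabine. The lowest total was that of guadecitabine replicate 2, so that its raw counts are lower throughout, and comparisons used counts normalized to the mean library total. Of the 5 markers held to be high in MDA-MB-231, VIM had 32223 to 82480 counts in every library, while SPARC had 18, 24 and 74 counts with vehicle. Of those held to be low, ESR1 had at most 1 count outside vehicle replicate 3, where it had 67, while ERBB2 had 552 to 1974 counts and EPCAM 90 to 466. Markers of testis somatic cells, 7 of 8 in the table, summed to 39.3 to 58.7 normalized counts per kb in vehicle replicates 1 and 2, 80.1 in vehicle replicate 3 and 78.1 to 104.3 with guadecitabine. FSHR, LHCGR and CYP17A1 were at 0 in all guadecitabine libraries, and most of the summed level there was CYP11A1, with 154, 77 and 151 counts.

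A member was called when its p from edgeR, adjusted over all genes by the method of Benjamini and Hochberg, was under 0.05, and 20 of 30 were called higher. Over all 13322 genes tested, 19.3% were higher and 18.4% lower. Of the 30, 12 were at 0 in vehicle replicates 1 and 2 and could pass the count filter mainly through guadecitabine libraries, so that the 30 are not a fair sample of the list. Over all 46 members with no filter, the median log2 fold change was 1.71, against −0.11 over all transcripts, and 35 of the 46 were above 0. Of the 20, 16 had a log2 fold change of at least 3, and the 20 ranged from 0.46 for TDRKH to 8.0 for DAZL. The share of all transcripts above 0 and the share of all called genes at 3 or more were not computed. At an unadjusted p under 0.05 edgeR called 22 members higher and 0 lower, and DESeq2 also called 0 lower. In vehicle replicates 1 and 2, 22 of the 46 members were at 0 and 27 had at most 1 count in each. A fall could hardly be called for such members, so that 0 lower says little about them. The other 16 members in the table were under the count filter, and with no filter 20 of 46 were higher and 0 lower, where 13.6% of all transcripts were higher and 11.9% lower. Without vehicle replicate 3, 27 of 30 tested members were higher and 0 lower, against 22.6% and 19.4% of all genes tested. Among the 27 were all 20 members called with every library and 7 more, namely DDX4, DPPA4, SMC1B, TEX14, PIWIL2, FKBP6 and TDRD12. Dropping the filter as well left 31 members higher and 0 lower, the further 4 being RNF17, TEX15, TEX101 and MSH4, each at 0 in vehicle replicates 1 and 2. The share of all transcripts called in that fit was not computed, so that the 31 cannot be set against it. In 24 of 46 members every guadecitabine library was above every vehicle library in normalized counts, and in 0 members below, where 21.1% of all transcripts were above and 20.9% below. A permutation test of single genes is limited to an exact two-sided p of 0.1 with 3 against 3 libraries, and the members without overlap reached that value.

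**Figure D1:**
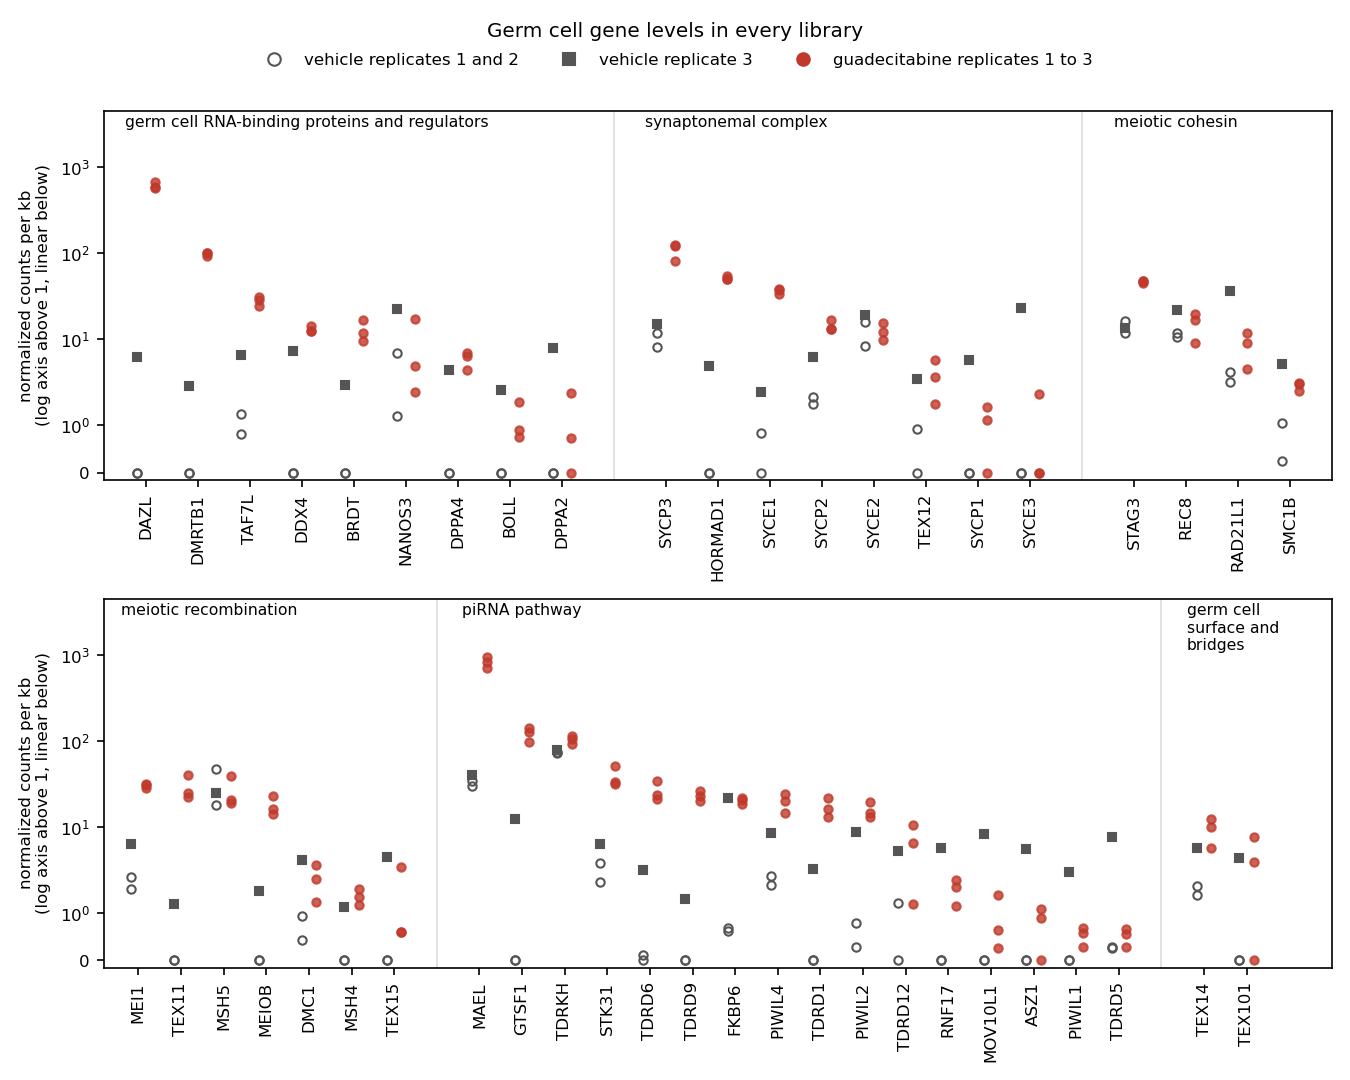
Normalized counts per kb of exon of the 46 members in each of the 6 libraries, grouped by role, on an axis that is logarithmic above 1 and linear below. Open circles are vehicle replicates 1 and 2, squares vehicle replicate 3 and filled circles the guadecitabine libraries. DAZL and MAEL are the highest after guadecitabine, at means of 610 and 822, and squares lie above the open circles in most low members.

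Among RNA-binding proteins and regulators of germ cells, 4 of 9 members rose, 2 were tested and not called, and 3 were under the filter. DAZL, an RNA-binding protein that germ cells need to enter meiosis, had 0, 0 and 24 counts with vehicle and 2535, 880 and 1726 with guadecitabine. It lies at chr3:16628301-16647006 on the minus strand. Its normalized counts were 1860 ± 167 (SD, n = 3) with guadecitabine and 6.17 ± 10.7 with vehicle, a log2 fold change of 8.0 (SE 0.55, adjusted p = 9.93e-06). All 24 vehicle counts came from replicate 3. Against a floor of 3 counts in each of the other vehicle libraries, the guadecitabine mean of DAZL was at least 618-fold higher. The bounds given for other members used the same floor. They also refer to the guadecitabine mean, so that single libraries can lie below them. The level of DAZL per kb after treatment stood at the 83.7th percentile of all transcripts in the table.

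DMRTB1, a transcription factor of spermatogonia that approach meiosis, had 0, 0 and 7 counts with vehicle and 220, 94 and 191 with guadecitabine. The groups did not overlap, and without vehicle replicate 3 it was at least 62.2-fold higher. Over all 6 libraries the log2 fold change was 6.41 (SE 0.60). TAF7L, a germ cell form of a subunit of the general transcription factor TFIID, went from 2, 3 and 20 counts to 83, 28 and 71, a log2 fold change of 3.18 (SE 0.67, adjusted p = 0.00571), or 4.65 without vehicle replicate 3. BRDT, a bromodomain protein that reads acetylated histones in spermatocytes and spermatids, had 0, 0 and 14 counts with vehicle and 75, 17 and 43 with guadecitabine. Its log2 fold change of 3.53 (SE 1.04, adjusted p = 0.0258) was the least firm in this group. It rose to 8.50 without vehicle replicate 3, while without vehicle replicate 1, vehicle replicate 2, guadecitabine replicate 1 or guadecitabine replicate 3 the adjusted p was 0.0521, 0.0515, 0.0940 and 0.0950, and the call was lost.

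DDX4, the germ cell RNA helicase known as Vasa, had 48, 17 and 34 counts with guadecitabine against 0, 0 and 26 with vehicle. The guadecitabine libraries lay above all vehicle libraries after normalization, but the log2 fold change of 2.32 (SE 1.13, adjusted p = 0.137) was not called. Without vehicle replicate 3 it was 8.10 (adjusted p = 5.24e-05), and DDX4 was at least 11.9-fold higher. DPPA4, a chromatin protein of germ cells and early embryos, had 22, 6 and 19 counts against 0, 0 and 16 and a log2 fold change of 1.88 (SE 1.13), with an adjusted p of 0.221 over all libraries and, called, 0.000545 without vehicle replicate 3. BOLL, of the same family as DAZL, had 3, 1 and 5 counts with guadecitabine against 0, 0 and 9. DPPA2, the partner of DPPA4, had 4, 0 and 1 against 0, 0 and 14, and NANOS3, a survival factor of primordial germ cells, 5, 7 and 2 against 6, 1 and 24. These 3 were under the filter, with overlapping groups.

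Of the synaptonemal complex and chromosome axis, 4 of 8 members in the table rose. SYCP3 and SYCP2, which build the axes of meiotic chromosomes, went up together with the axis protein HORMAD1 and with SYCE1 of the central element. SYCP3 had 13, 8 and 20 counts with vehicle and 161, 41 and 126 with guadecitabine, a log2 fold change of 3.21 (SE 0.35, adjusted p = 0.000154), or 3.45 without vehicle replicate 3. SYCP2 had 12, 9 and 44 against 111, 35 and 71, and its log2 fold change was 2.05 (SE 0.50), or 2.88 without vehicle replicate 3. Both genes therefore had counts in every vehicle library, and the groups did not overlap in either.

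HORMAD1 had 0, 0 and 12 counts with vehicle and 125, 46 and 94 with guadecitabine. It rose by 4.76 on the log2 scale (SE 0.87, adjusted p = 0.00267), and by at least 32.1-fold without vehicle replicate 3. SYCE1 went from 0, 1 and 4 counts to 59, 24 and 42, a log2 fold change of 4.86 (SE 0.77), or 6.19 without vehicle replicate 3. Of its 1377 annotated exon bases, 61.4% overlap CYP2E1 on the opposite strand, and the strand setting of the counting is not given in the sources used here. CYP2E1 itself had 16, 11 and 28 counts with vehicle and 11, 3 and 11 with guadecitabine. Likewise 11.9% of the 3690 annotated exon bases of SYCP3 overlap CHPT1, with 541 to 1211 counts. For SYCE2 24.5% of 1248 overlap GCDH, with 295 to 756. Fewer bases were counted, 1274 in SYCE1, 1045 in SYCP3 and 933 in SYCE2. How many of the overlapping bases are among them was not tested.

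SYCE2, also of the central element, had 8, 14 and 23 counts with vehicle and 14, 7 and 9 with guadecitabine, with overlapping groups and a log2 fold change of −0.24 (SE 0.60, adjusted p = 0.780). SYCP1, the transverse filament that joins the axes, had 7, 0 and 4 counts with guadecitabine against 0, 0 and 26. TEX12 had 8, 2 and 2 against 0, 1 and 5, and SYCE3 had 0, 0 and 1 against 0, 0 and 13. The members that bridge the paired axes, other than SYCE1, thus stayed at 14 counts or fewer in each guadecitabine library.

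Meiotic cohesin gave 1 call among 4 members, all of which were tested. STAG3, the meiotic form of the STAG subunit, had 52, 34 and 54 counts with vehicle and 182, 71 and 139 with guadecitabine. Normalized, these were 42.3 ± 6.83 and 144 ± 3.53, a log2 fold change of 1.76 (SE 0.21, adjusted p = 0.000255), and the value without vehicle replicate 3 was 1.74. In STAG3 86.3% of the 50-base stretches of its annotated exons are unique in the genome. Of its 4163 annotated exon bases, 24.6% overlap CASTOR3P on the opposite strand. CASTOR3P had 75 to 142 counts with vehicle and 50 to 112 with guadecitabine. For STAG3 3097 bases were counted, and how many of the overlapping bases are among them was not tested. REC8, the meiotic kleisin, had 28, 23 and 64 counts against 47, 10 and 44, with a log2 fold change of 0.05 (SE 0.47), and its groups overlapped. RAD21L1, a second meiotic kleisin, had 6, 7 and 84 counts against 20, 4 and 21. Its log2 fold change was −0.75 (SE 0.90) with every library and 1.30 without vehicle replicate 3, called in neither (adjusted p = 0.546 and 0.0557). SMC1B, the meiotic SMC1 subunit, had 1, 4 and 27 counts against 15, 6 and 10, with a log2 fold change of 0.35 that became 2.13 (adjusted p = 0.0203) without vehicle replicate 3.

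Of the 7 genes of meiotic recombination in the table, TEX11, MEI1 and MEIOB rose and the other 4 were under the filter. TEX11 and MEIOB, at 0 in vehicle replicates 1 and 2, passed the filter through their guadecitabine counts. TEX11, an X-linked protein of crossover sites, had 0, 0 and 5 counts with vehicle and 148, 37 and 67 with guadecitabine. The rise was 5.79 on the log2 scale (SE 0.81, adjusted p = 0.000600) and at least 29.1-fold without vehicle replicate 3. MEI1, which meiotic cells need to form DNA breaks, went from 8, 10 and 33 counts to 140, 61 and 125, a log2 fold change of 3.01 (SE 0.42), or 3.72 without vehicle replicate 3. MEIOB, a single-stranded DNA binding protein that acts on those breaks, had 0, 0 and 4 counts with vehicle and 30, 19 and 27 with guadecitabine. It was at least 9.98-fold higher without vehicle replicate 3, and 82.0% of its annotated exon bases are shared with an unnamed transcript on the same strand. A further 9.88% overlap FAHD1 on the opposite strand, which had 166 to 245 counts with vehicle and 80 to 156 with guadecitabine. In none of the 3 did the groups overlap.

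The recombinase DMC1 had 7, 4 and 3 counts with guadecitabine against 1, 2 and 12, and MSH4, which stabilizes crossovers with MSH5, had 5, 3 and 5 against 0, 0 and 5. MSH5 itself had 4, 3 and 3 counts against 3, 7 and 5, counted over 158 bp. Of its 2936 annotated exon bases, 92.2% are shared with a read-through transcript, and whether the counted bases are shared was not tested. TEX15, which acts in recombination and in transposon silencing, had 42, 3 and 6 counts against 0, 0 and 59, so that 1 guadecitabine library held most of its counts. These 4 were under the filter, and the 3 other than MSH4 had overlapping groups. TEX15 (adjusted p = 0.00247) and MSH4 (adjusted p = 0.0200) were called higher without vehicle replicate 3 and without a filter. Of the germ cell surface and bridge proteins, TEX14, which keeps the bridges between germ cells open, had 58, 13 and 58 counts against 8, 9 and 34. This log2 fold change of 1.59 (SE 0.59, adjusted p = 0.0590) was not called, while without vehicle replicate 3 it was 2.41 (adjusted p = 0.00113). TEX101, a surface glycoprotein of germ cells, had 15, 3 and 0 counts against 0, 0 and 9, and its adjusted p was 0.0364 without vehicle replicate 3 and without a filter.

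**Figure D2:**
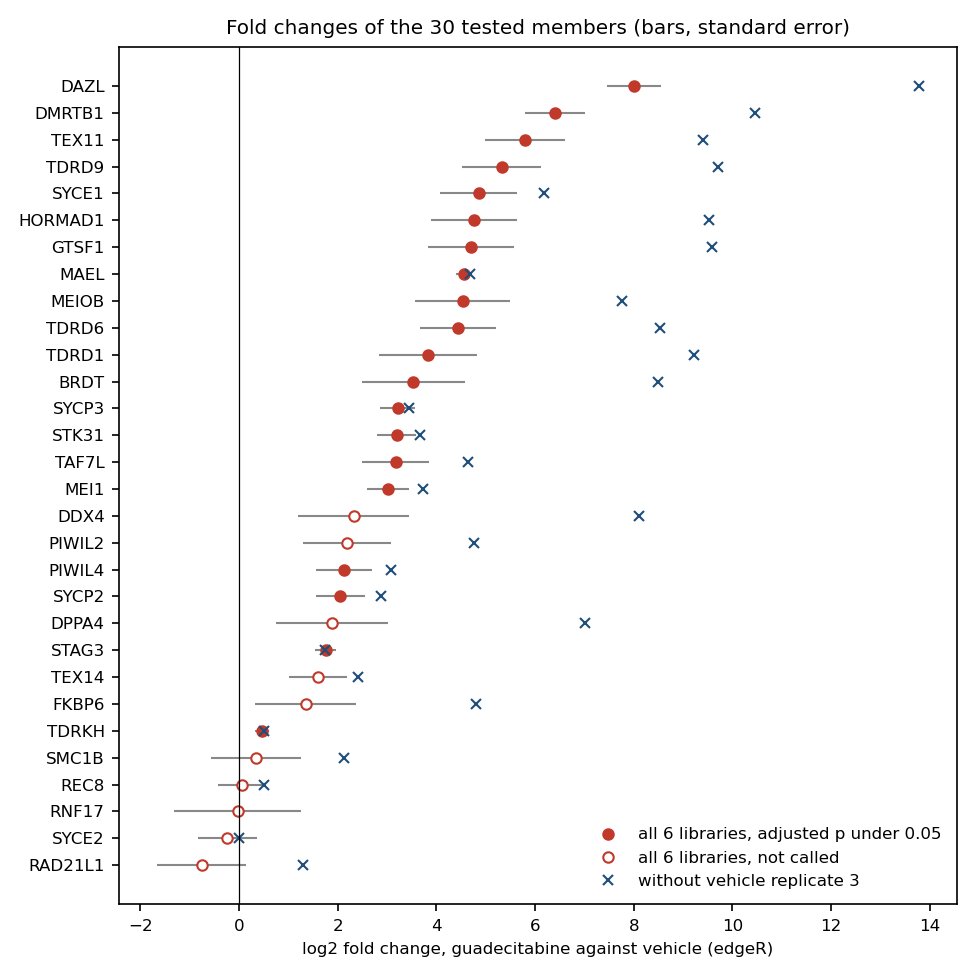
Log2 fold change of guadecitabine against vehicle for the 30 tested members, from edgeR, with bars of 1 standard error. Filled circles were called with all 6 libraries and open circles were not, and crosses are the values without vehicle replicate 3, which is missing for RNF17. The 20 called members run from 0.46 for TDRKH to 8.0 for DAZL, and DAZL and DMRTB1 have the crosses farthest to the right. For genes at 0 in vehicle replicates 1 and 2 the position of the cross depends on the prior count of the fit.

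The piRNA pathway gave 8 calls among 16 members, with 3 more tested and 5 under the filter. MAEL, which acts in transposon silencing in the germline, was the most abundant of all members after guadecitabine, at 822 normalized counts per kb and the 87.3rd percentile of transcripts. It had 61, 48 and 88 counts with vehicle and 1964, 585 and 1398 with guadecitabine, from a gene at chr1:166944819-166991449 on the plus strand. Normalized counts were 58.8 ± 8.66 with vehicle and 1396 ± 200 (SD, n = 3) with guadecitabine, a log2 fold change of 4.56 (SE 0.17, adjusted p = 2.28e-07). MAEL was thus present in every vehicle library, and leaving out any single library kept its log2 fold change between 4.45 and 4.68.

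Of the Tudor-domain scaffolds that bind PIWI proteins, TDRD6 had 1, 0 and 36 counts with vehicle and 371, 91 and 206 with guadecitabine, a log2 fold change of 4.44 (SE 0.77). The fitted value was 8.53 without vehicle replicate 3, where 1 vehicle count was left (adjusted p = 1.55e-06). TDRD9, which joins a Tudor domain to a helicase, had 0, 0 and 9 counts against 153, 54 and 95, and was at least 36.5-fold higher without vehicle replicate 3. TDRD1 had 0, 0 and 19 counts against 122, 29 and 72, at least 25.5-fold higher without that library. Its log2 fold change of 3.83 (SE 0.99, adjusted p = 0.0146) lost its call without guadecitabine replicate 1 (adjusted p = 0.0646) or guadecitabine replicate 3 (0.0665). STK31, a kinase-like protein with a Tudor domain, rose from 8, 12 and 27 counts to 207, 52 and 109, a log2 fold change of 3.19 (SE 0.40), or 3.68 without vehicle replicate 3. The groups did not overlap in any of these 4.

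GTSF1, a small cofactor of PIWI proteins, had 0, 0 and 13 counts with vehicle and 129, 39 and 114 with guadecitabine, and was at least 33.1-fold higher without vehicle replicate 3. Its log2 fold change was 4.70 (SE 0.88) over all libraries. At 123 normalized counts per kb it was the highest member after MAEL and DAZL. TDRKH, a mitochondrial partner of PIWI proteins in the trimming of piRNA ends, was already present, with 180, 158 and 238 counts with vehicle and 300, 131 and 211 with guadecitabine. Its log2 fold change of 0.46 (SE 0.14, adjusted p = 0.0306) was the smallest called. The call was lost without vehicle replicate 1 (adjusted p = 0.100), vehicle replicate 2 (0.104) or guadecitabine replicate 2 (0.0714).

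Among the PIWI proteins themselves, which bind piRNAs, PIWIL4 rose from 7, 8 and 35 counts to 94, 23 and 64, a log2 fold change of 2.13 (SE 0.56, adjusted p = 0.0161). Without vehicle replicate 3 it was 3.07, and the adjusted p was 0.0502, 0.0526, 0.0672 and 0.0696 without vehicle replicate 1, vehicle replicate 2, guadecitabine replicate 1 and guadecitabine replicate 3. PIWIL2 had 3, 1 and 41 counts against 87, 23 and 52, and its log2 fold change of 2.19 (SE 0.89, adjusted p = 0.0802) was not called. It became 4.77 (adjusted p = 3.54e-05) without vehicle replicate 3, where both remaining vehicle libraries held 3 counts or fewer. PIWIL1 had 3, 1 and 1 counts with guadecitabine against 0, 0 and 14.

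FKBP6, a cochaperone of the pathway, had 39, 14 and 33 counts against 1, 1 and 43, so that vehicle replicate 3 alone reached the guadecitabine level. Its log2 fold change was 1.35 (adjusted p = 0.332) with that library and 4.80 (adjusted p = 6.61e-05) without it, over exons of which 78.9% of 50-base stretches are unique. TDRD12, a helicase with Tudor domains, had 13, 1 and 17 counts against 0, 2 and 11, was under the filter with every library, and was called without vehicle replicate 3 at a log2 fold change of 3.31 (adjusted p = 0.0231). RNF17 had 15, 3 and 10 counts against 0, 0 and 37, with a log2 fold change of −0.03 (SE 1.28), and was under the filter without that library (adjusted p = 0.00172 without a filter). MOV10L1, the helicase that starts piRNA processing, had 3, 3 and 1 counts against 0, 0 and 41. TDRD5 had 3, 1 and 1 against 1, 1 and 36, and ASZ1 had 2, 0 and 2 against 0, 0 and 13.

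**Figure D3:**
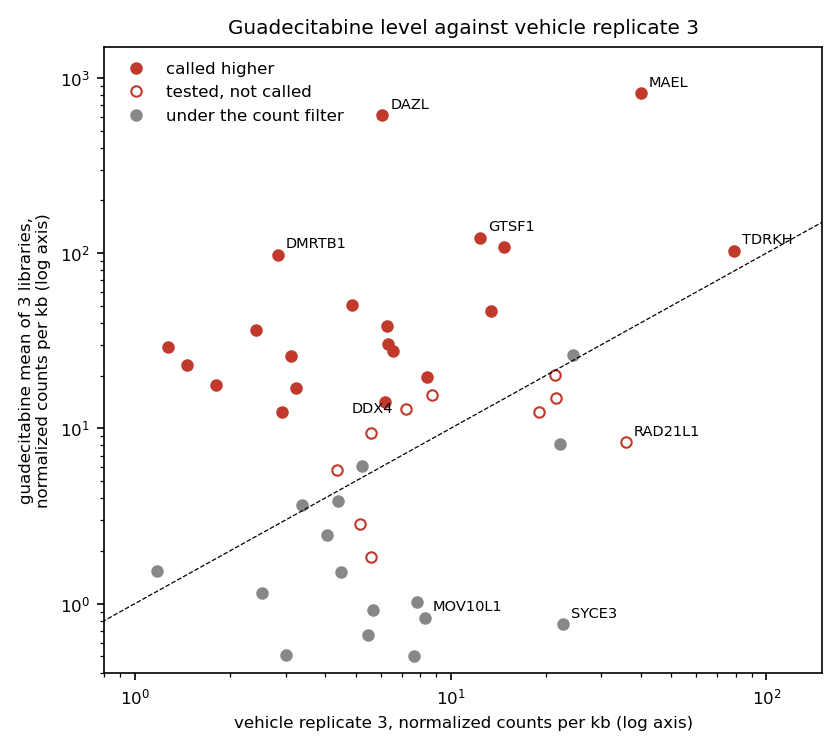
Mean level of each of the 46 members after guadecitabine against its level in vehicle replicate 3, both as normalized counts per kb on log axes. The dashed line marks equal levels. The 20 called members lie above it, and 16 of the 46 members had every guadecitabine library below vehicle replicate 3. The share of all transcripts with that pattern was not computed.

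Rises were uneven within each machinery. After guadecitabine the called members spanned 12.5 to 822 normalized counts per kb, from the 30.5th to the 87.3rd percentile of all transcripts, and 6 of the 20 reached at least the 50th percentile. The 16 members under the filter had 0 to 42 counts in any guadecitabine library, at most 7 in vehicle replicates 1 and 2, and 5 to 59 in vehicle replicate 3. In 11 of the 16 every guadecitabine library was below vehicle replicate 3. Set against vehicle replicates 1 and 2 alone, all guadecitabine libraries were higher in 35 of the 46 members. The share of all transcripts was computed neither for this comparison nor for that with vehicle replicate 3. As 22 members were at 0 in both of those libraries, any count in every guadecitabine library was enough for them. With differences of a few counts, BOLL, PIWIL1 and ASZ1 were not called by edgeR without vehicle replicate 3 and without a filter (adjusted p = 0.0571, 0.157 and 0.222). MSH4, also at a few counts, was called there (adjusted p = 0.0200). Whether sequencing depth set this limit was not tested.

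Over the 300 bases from 250 before to 50 after the annotated start, the 46 members had a median of 21 CpG sites, against 22 over the 17093 transcripts of the table with a sequence. The 20 called members had a median of 20 CpG sites and the other 26 a median of 23.5. At least 10 CpG sites were found in 18 of the 20 called members (90.0%), in 20 of the other 26 (76.9%) and in 75.9% of all transcripts. MAEL had the most CpG sites of any member, 60, and DAZL had 25, while SYCP2 rose with 6, DMRTB1 with 8 and GTSF1 with 10. MOV10L1 had 44 CpG sites and PIWIL1 had 30 at levels under 1 normalized count per kb. For each gene only the start of the counted transcript was used. The ranges of CpG number of called and other members overlapped, which is a description without a test.

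**Figure D4:**
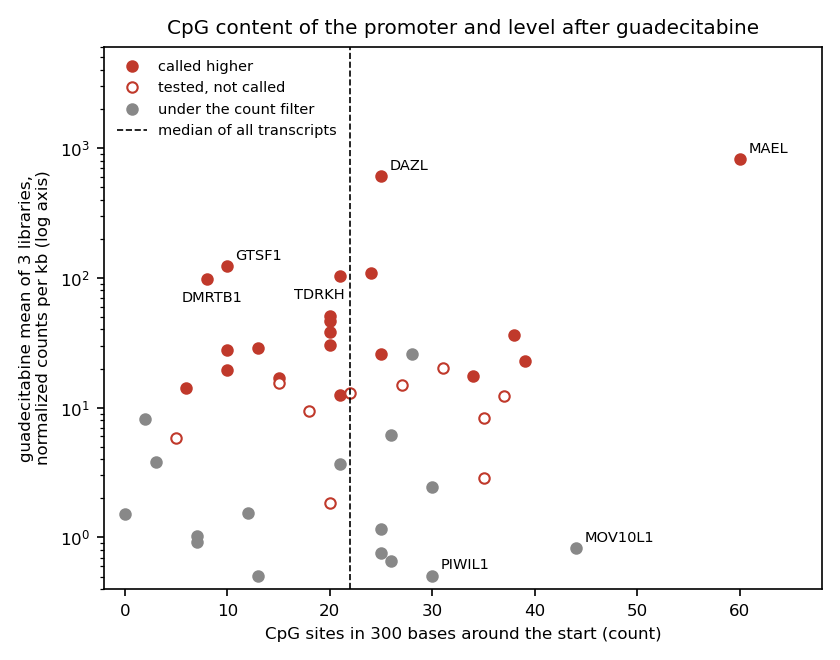
CpG sites in the 300 bases around the annotated start of each of the 46 members against its mean normalized counts per kb after guadecitabine on a log axis. The dashed line is the median of all transcripts, 22. Called members are found from 6 CpG sites (SYCP2) to 60 (MAEL), and MOV10L1 and PIWIL1 lie at the bottom right.

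A pair of motifs bound by repressors of germline genes was searched on both strands of the same windows. The E-box CACGTG, a site of MAX and its partner MGA, was in 5 of the 20 called members (BRDT, PIWIL4, STAG3, STK31 and TDRD1) and in 3 of the other 26 (DDX4, TDRD12 and TEX12), against 8.63% of all transcripts. The E2F motif GCGGGAA, or TTCCCGC on the other strand, was in 4 called members (HORMAD1, MEI1, SYCE1 and TDRD9) and in 6 of the others, among them SMC1B, REC8 and TEX14, against 8.65% of all transcripts. A match is a run of letters and not a measured binding site.

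Other genes of the same pathways were taken from lists drawn up by known role, also with earlier results of these data known. Of 18 other piRNA pathway genes tested, 11 were higher (61.1%) and 1 lower (5.56%), where 19.3% and 18.4% of all genes tested were. The median log2 fold change was 0.72 against 0.02 over all genes tested, and without guadecitabine replicate 1 the lower count was 2. Against a 2-fold threshold 3 were higher and 0 lower, and the share of all genes at that threshold was not computed. Among the 11 were genes with many vehicle counts and small rises, such as HSP90AA1 (16139 to 19641 counts, 0.80 on the log2 scale) and PRMT5 (2255 to 3483, 0.65). DDX43, a germ cell RNA helicase, rose from 1, 2 and 12 counts to 403, 110 and 312, a log2 fold change of 5.98 (SE 0.45), or 7.48 without vehicle replicate 3. PNLDC1, the enzyme that trims piRNA ends, rose by 3.38 on the log2 scale (SE 0.91, adjusted p = 0.0172), or 5.59 without vehicle replicate 3, and lost its call without vehicle replicate 2 (adjusted p = 0.0603) or any 1 guadecitabine library (0.0565 to 0.0669). HENMT1, which methylates those ends, went from 14, 14 and 43 counts to 269, 71 and 177, a log2 fold change of 3.11 (SE 0.35), or 3.69 without vehicle replicate 3. MOV10, the widely expressed relative of MOV10L1, fell by 0.49 on the log2 scale (SE 0.10).

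Of 22 other meiosis genes tested, 5 were higher and 2 lower, or 22.7% and 9.09%, where 19.3% and 18.4% of all genes tested were. When vehicle replicate 3 was left out the counts were 9 and 1. The lower count was also 1 without vehicle replicate 1, vehicle replicate 2 or guadecitabine replicate 2. C17orf104 (MEIOC), a regulator of early meiosis, rose by 2.60 on the log2 scale (SE 0.48), or 3.30 without vehicle replicate 3, and PSMC3IP, a cofactor of DMC1, by 0.76 (SE 0.16). C9orf84 (SHOC1), a crossover factor, rose by 1.95 (SE 0.62, adjusted p = 0.0345), or 3.15 without vehicle replicate 3, with an adjusted p of 0.0804 to 0.123 without vehicle replicate 1, vehicle replicate 2, guadecitabine replicate 1 or guadecitabine replicate 3. MTL5 (TESMIN) fell by 1.41 (SE 0.33). CCNA1, the germ cell cyclin A, fell by 0.48 (SE 0.16, adjusted p = 0.0447), and its adjusted p was 0.0795 to 0.133 without any 1 library other than guadecitabine replicate 3. Of 17 other germ cell regulators tested, 7 were higher and 0 lower, or 10 and 0 without vehicle replicate 3, and edgeR without a filter called 8 higher and 0 lower, while 1 was lower without guadecitabine replicate 1. OOEP, an oocyte protein, had 0, 0 and 6 counts with vehicle and 126, 39 and 98 with guadecitabine, a log2 fold change of 5.64 (SE 0.79). RBMXL2 and RBM46, RNA-binding proteins of male germ cells, had log2 fold changes of 4.98 (SE 0.96) and 4.50 (SE 0.80), or 7.42 and 7.0 without vehicle replicate 3.

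Genes of spermatids and sperm, the stages after meiosis, gave 2 higher and 1 lower among 11 tested, with a median log2 fold change of −0.23. These were 18.2% and 9.09% of the 11, where 19.3% and 18.4% of all genes tested were. The share of higher genes was thus near that over all genes. Of the 48 genes listed 29 were in the table, and those of them not tested were under the count filter. CABYR, a calcium-binding protein of the sperm tail, rose by 2.52 (SE 0.31) and the transcription factor gene CREM by 0.70 (SE 0.12), while the kinase gene TSSK6 fell by 1.57 (SE 0.37). Without vehicle replicate 3 the counts in this list were 3 higher and 3 lower. Over these 4 germline lists 25 of 68 tested genes were higher (36.8%) and 4 lower (5.88%), and without vehicle replicate 3 the counts were 33 and 5. Genes at 0 in vehicle replicates 1 and 2, such as OOEP and RBMXL2, could pass the filter mainly through guadecitabine libraries. The tested genes are therefore not a fair sample of these lists. With no filter 25 of the 116 genes in the table were higher and 3 lower, where 13.6% of all transcripts were higher and 11.9% lower. Of 23 known repressors of germline genes, all tested, 1 was higher (4.35%) and 9 were lower (39.1%). Over all genes tested the shares were 19.3% and 18.4%. Without a filter the counts were 1 and 5, without vehicle replicate 3 they were 2 and 8, and against a 2-fold threshold 0 and 0. The share of all genes at the 2-fold threshold was not computed. E2F6, which represses meiosis genes, rose by 0.60 (SE 0.16, adjusted p = 0.0143, and 0.0677 without vehicle replicate 1). The histone methyltransferase gene EHMT2, the DNA methyltransferase gene DNMT3A and UHRF1, which brings DNMT1 to newly made DNA, fell by 0.85 (SE 0.11), 0.85 (SE 0.16) and 0.76 (SE 0.13). The lower count among repressors was 5 without vehicle replicate 1 and 5 without vehicle replicate 2. Their higher count was 0 without vehicle replicate 1 and 2 without guadecitabine replicate 2.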

How the data were processed

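RNA of MDA-MB-231 cells was sequenced from 3 vehicle and 3 guadecitabine libraries, grouped by their labels. The authors aligned reads to hg19 with STAR 2.3.1z and deposited raw counts of exons per RefSeq transcript, made with iRNA-seq, beside the counted exon length. The regularized log2 values and the results of their DESeq2 comparison (log2 fold change, standard error, p-value, adjusted p-value and a test score) that the authors deposited were not used.

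The test was that of edgeR 4.0.16, run in R 4.3.3 (TMM, filterByExpr with a minimum count of 10, quasi-likelihood test, Benjamini-Hochberg adjustment over 13322 genes, threshold 0.05). Standard errors came from the F statistic. Normalized counts refer to the mean library total, and per kb values divided by counted exon length. A floor of 3 counts per library set lower bounds for the guadecitabine mean without vehicle replicate 3, and covers counting error only. With counts simulated for 13136 genes of this contrast, edgeR recovered 74 of 97 genes changed by 1 and 86 of 98 changed by 2 on the log2 scale, with 13 false calls. The simulation used mean levels over all libraries and few changed genes. It held no genes silent in vehicle and no library like vehicle replicate 3, so that these numbers do not carry over to such members. DESeq2 1.42.0, other normalizations and filters, a replicate block, a 2-fold threshold, background subtraction and leaving out each library were alternatives, and leaving out vehicle replicate 3 without a filter was added after seeing the data. Exon overlap, unique stretches of 50 bases and promoter windows used GENCODE release 44 on GRCh37 with Python 3.11.15, and promoter sequence was read from that genome. Overlap and unique stretches refer to annotated exons, which can differ from the bases counted.

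Members and gene lists were chosen with earlier results of these data known. All called members are named with values in every library, and of other lists the 3 largest rises and 3 largest falls past the threshold. Xenograft, array and protein data of the study were not analysed here.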

Additional observations from a re-analysis of the deposited data

How the results depend on the processing

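The members called higher numbered 20 in the reported fit and 20 to 21 under the size factors of DESeq2, library totals only, no filter, and the Wald test of DESeq2. With the background subtracted from vehicle replicate 3 they numbered 25, against a 2-fold threshold 15, and with at least 10 counts in every library 3, where most members drop out because a vehicle library has fewer than 10. Without vehicle replicate 3 and without a filter, which was added after seeing the data, the number was 31. Leaving out 1 library gave 17 to 27, the highest without vehicle replicate 3. Shares over all genes were computed only for the reported fit, without a filter, and without vehicle replicate 3 with the filter kept. The other counts of this section cannot be set against such a share. The count of members lower was 0 under every alternative run, but a fall could hardly be called for the 22 members at 0 in vehicle replicates 1 and 2. Other germline genes numbered 25 higher and 4 lower, 9 and 0 against a 2-fold threshold, 38 higher without vehicle replicate 3 and without a filter, and 21 to 33 higher and 3 to 7 lower without 1 library, with 7 lower without guadecitabine replicate 1.

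The replicate numbers were shared by label only, with correlations of same-numbered deviations of −0.0376, 0.0383 and −0.0317. With the replicate block 21 members were higher and 0 lower, and 25 and 3 other germline genes. Under the block TEX14 (adjusted p = 0.0487) and PIWIL2 (0.0283) were called, and TDRKH (0.0651) and CCNA1 (0.0594) were not. DESeq2 called TEX14 (adjusted p = 0.0296) and PIWIL2 (0.0337), and did not call TDRD1 (0.0873) or CCNA1 (0.0644).

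Signs turned in 5 members that were not called in the reported fit. When 1 library was left out, SYCE2 ranged from −0.51 to 0.0072 on the log2 scale (0.0072 without vehicle replicate 3), SMC1B from −0.16 (without vehicle replicate 1) to 2.13, RAD21L1 from −1.21 to 1.30 and RNF17 from −0.58 to 0.19. REC8 ranged from −0.18 to 0.50, with −0.08 and −0.12 without vehicle replicates 1 and 2 and −0.03 and −0.18 without guadecitabine replicates 1 and 3. RAD21L1 was at 1.30 without vehicle replicate 3 and 1.28 when the filter was dropped too. RNF17 was at 0.066 without a filter, 1.40 with the replicate block, 0.19 without guadecitabine replicate 2 and 6.26 (adjusted p = 0.00172) without vehicle replicate 3 and without a filter. The cause was not tested.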
